A study of Homo sapiens with 8 samples.

Results

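The comparison described here sets ibrutinib against its solvent, DMSO, in TMD8 cells that carried a control guide RNA. TMD8 is an established human line derived from a diffuse large B cell lymphoma of the activated B cell-like type. Its cells had been lentivirally transduced to express Cas9 and stably carried the control guide (sgCTRL, genotype KLHL14(+/+)), and they were lysed after 24 h in DMSO or in 2 nM ibrutinib, which binds and blocks Bruton tyrosine kinase (BTK). Each treatment had 2 libraries, so the comparison used 4 of the 8 libraries of the series. The other 4 held the same treatments of cells with a guide against KLHL14 (sgKLHL14), and the cells of all 8 libraries carried Cas9. Whether the cells were a clone or a pool is not given in the sources used here. Genes were taken if their mean log2 normalized count over the 8 libraries was at least 6, which kept 10921 of 25066 genes.

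Lymphomas of this type live on signals that normally pass only briefly through the B cell receptor. The receptor chains CD79A and CD79B recruit the kinases SYK and BTK, BTK activates the phospholipase PLCG2, and protein kinase C then switches on a complex with BCL10 and MALT1, which frees the transcription factor NF-kB. Toll-like receptors acting through MYD88 feed the same end point, and the transcription factor IRF4, which NF-kB sustains, together with SPIB holds down the type I interferon programme in these cells. Ibrutinib interrupts the chain at BTK.

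The 4 sgCTRL libraries held 13331861 to 23152352 reads, and at least 99.65% of each library's reads fell on the genes kept. The lowest count behind any level was 5 reads. Replicate libraries correlated across genes at 0.9964 in DMSO and 0.9971 in ibrutinib, with a root mean square SD of 0.117 and 0.103 on the log2 scale, and they differed by more than sampling noise (chi-square per degree of freedom 4.63 and 2.36). The labels do not state that replicate libraries are from different cultures, and the p-values therefore measure a spread that may be technical. KLHL14, the gene targeted in the other cells, was at 12.07 and 12.05 in DMSO and at 12.30 and 12.30 in ibrutinib with sgCTRL. In the libraries labelled sgKLHL14 it was at 12.19 and 12.33 in DMSO and at 13.16 and 13.16 in ibrutinib. Small insertions and deletions need not change a read count per gene, so these levels do not check the genotype. All 10 B cell markers were measured above the level filter, and their summed normalized count was 145000 to 153000 in DMSO and 203000 to 207000 in ibrutinib. The T cell genes CD3D, CD3E, CD3G, CD28 and TRAT1 were at 0 in all 4 libraries, and CD5, a receptor that B cells also use, was the 1 of 10 T cell markers above the filter. Of 10 myeloid markers 0 passed the filter and FCGR3A, S100A8, S100A9 and MPO were at 0. Of 10 epithelial and fibroblast markers 4 passed the filter, and their sum was 1770 to 1810 in DMSO and 1830 in both ibrutinib libraries. In RNA from a whole culture, fewer cells of a type and less RNA per cell cannot be told apart.

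Ibrutinib changed the level of 4138 of the 10921 genes (37.9%; limma-trend, Benjamini-Hochberg adjusted p under 0.05), 2117 of them higher (19.4%) and 2021 lower (18.5%). These shares are the background against which each group of genes is set below. The count fell when any 1 sgCTRL library was left out, and by more without an ibrutinib library than without a DMSO library. Most changes were small. The median size of a called change was 0.385 on the log2 scale, and 3105 called genes changed less than 1.5-fold. At least 2-fold changes were made by 169 higher genes (1.55% of those tested) and 139 lower genes (1.27%), and at least 4-fold changes by 16 genes in each direction. The ibrutinib and DMSO libraries did not overlap for any of the 4138 called genes, as against 7843 of all tested genes (71.8%). A stricter set of 838 higher genes (7.67%) and 812 lower genes (7.44%) was called with the same sign in the main analysis and in each of the 20 alternatives that tested it, which include leaving out each library, and such genes are called robust below. Not every gene named below was robust.

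**Figure D1:**
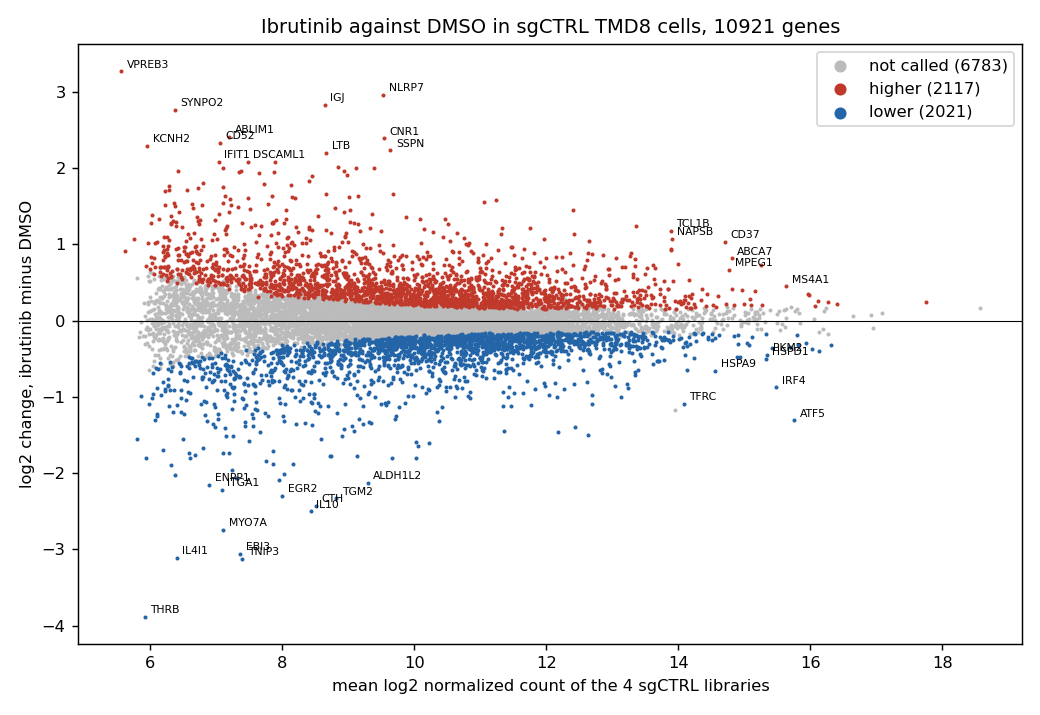
Change of each of the 10921 tested genes against its mean level. The x axis is the mean log2 normalized count of the 4 sgCTRL libraries and the y axis the log2 change, ibrutinib minus DMSO; red points are the 2117 genes called higher, blue points the 2021 called lower and grey points the rest. Large changes sit at low and middle levels, while TCL1B, CD37, IRF4, TFRC and ATF5 stand out among genes of high level.

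The chance of a call and the size of a change went opposite ways with level. When the genes were divided by mean level into 4 sets of equal size, 32.8% of the lowest set were called and 7.21% changed at least 2-fold. In the highest set 44.8% were called and 0.806% changed at least 2-fold. The median SE of a change fell from 0.158 to 0.0633 between these sets, so a small change was easier to call in a gene with many reads.

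The largest increase belonged to VPREB3, a small protein that associates with the immunoglobulin chains of precursor B cells. It was at 4.46 and 3.39 in DMSO and at 7.03 and 7.36 in ibrutinib (log2 normalized count), a rise of 3.27 (SE 0.262, n = 2 against 2, limma adjusted p = 2.29e-08). Its DMSO libraries were the farthest apart of the 12 leading genes, yet both lay well below the ibrutinib libraries. The DMSO levels of VPREB3 rested on low counts and lay under the filter of 6, which the gene passed through its other libraries. NLRP7, an intracellular sensor-family protein, was at 8.15 and 7.94 in DMSO and 11.020 and 11.002 in ibrutinib (2.97, SE 0.0826, limma adjusted p = 5.79e-14). IGJ, the joining chain that links IgM and IgA into polymers, was at 7.17 and 7.28 in DMSO and 10.10 and 10.02 in ibrutinib. The replicates of both genes were close together and the treatments far apart. CNR1, a cannabinoid receptor, rose by 2.39 from 8.29 and 8.39 to 10.67 and 10.79. CD52, the surface glycoprotein bound by alemtuzumab, rose by 2.33 from 5.70 and 6.08 to 8.21 and 8.23. The lower DMSO level of CD52 also lay under the filter of 6. LTB, which encodes lymphotoxin beta, rose by 2.20 from 7.59 and 7.54 to 9.76 and 9.77. The other 6 of the 12 largest robust increases were SYNPO2 (2.76) and ABLIM1 (2.41), actin-binding proteins, KCNH2 (2.30), a potassium channel, SSPN (2.23), a membrane protein of the dystrophin complex, IFIT1 (2.09), an antiviral RNA-binding protein, and DSCAML1 (2.08), a cell adhesion molecule.

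The largest decrease was that of THRB, a thyroid hormone receptor, from 7.77 and 7.95 in DMSO to 4.62 and 3.34 in ibrutinib (-3.88, SE 0.335, limma adjusted p = 5.88e-08). The ibrutinib libraries differed from each other by more than 1 log2 unit at these low counts. Both ibrutinib levels of THRB lay under the filter of 6, which the gene passed through its other libraries. TNIP3, an inhibitor of NF-kB signalling that is itself induced by it, went from 8.87 and 9.03 to 5.52 and 6.15 (-3.12, SE 0.18). IL4I1, a secreted amino acid oxidase, went from 7.80 and 8.12 to 5.35 and 4.34 (-3.11, SE 0.262). EBI3, a subunit of interleukins 27 and 35, went from 8.98 and 8.79 to 6.07 and 5.60 (-3.05, SE 0.181). Each of these genes was lower in both ibrutinib libraries than in either DMSO library. Ibrutinib levels of IL4I1 (5.35 and 4.34), TNIP3 (5.52) and EBI3 (5.60) also lay under the filter of 6. IL10, an interleukin that feeds STAT3 in this lymphoma type, was at 9.65 and 9.71 in DMSO and 7.12 and 7.25 in ibrutinib, a fall of 2.50 with close replicates (SE 0.111, limma adjusted p = 1.7e-11). CTH, the enzyme that makes cysteine from cystathionine, was at 9.68 and 9.76 in DMSO and 7.20 and 7.39 in ibrutinib. EGR2, a zinc finger factor induced by antigen receptors, was at 9.26 and 9.04 in DMSO and 6.71 and 7.00 in ibrutinib. The remaining 5 of the 12 largest robust decreases were MYO7A (-2.74), a myosin, TGM2 (-2.33), a transglutaminase, ITGA1 (-2.22), an integrin chain, ENPP1 (-2.15), an ectoenzyme that cleaves nucleotides, and ALDH1L2 (-2.13), a mitochondrial folate enzyme.

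**Figure D2:**
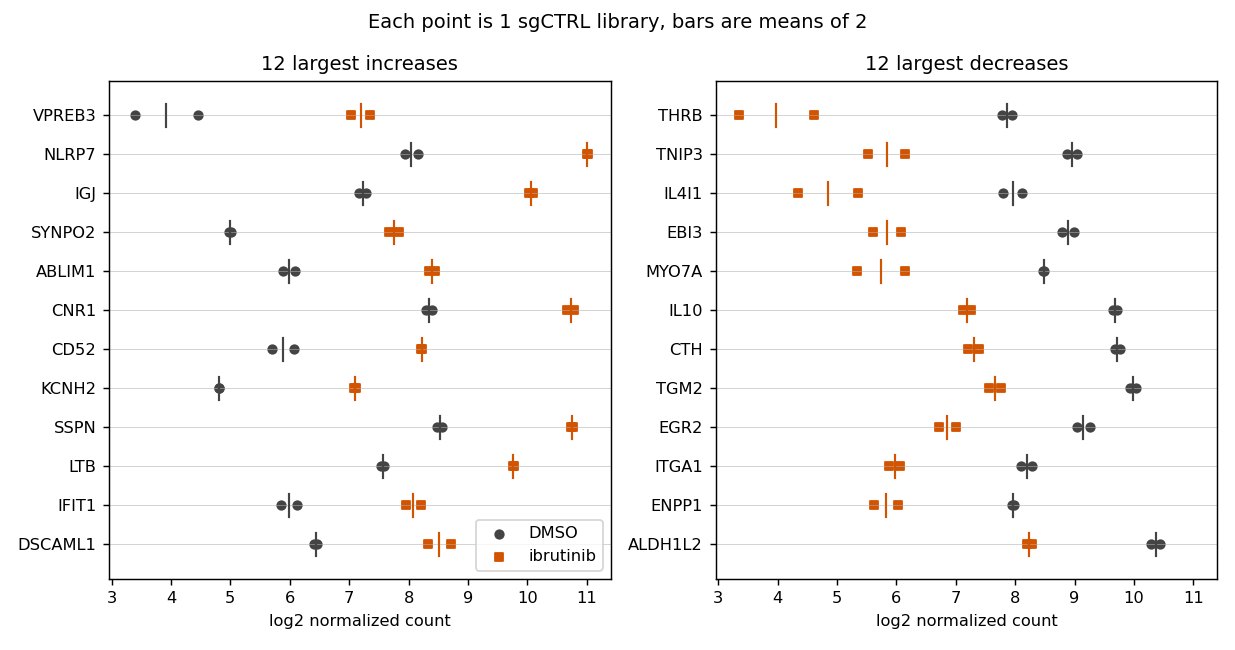
Levels of the 12 robust genes with the largest increases (left) and the 12 with the largest decreases (right). The x axis is the log2 normalized count; each circle is a DMSO library and each square an ibrutinib library of sgCTRL cells, and short bars are the means of 2. No gene has overlapping treatments, and the widest gaps between replicates are those of VPREB3 in DMSO and of THRB and IL4I1 in ibrutinib.

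On the linear scale, where a gene of high level weighs more and counts are not divided by gene length, the largest gains and losses fell on other genes. CD37, a tetraspanin of mature B cells, went from a mean normalized count of 18800 to 38500. MS4A1, which encodes CD20, went from 43600 to 59600, a log2 change of 0.45 (SE 0.0601, limma adjusted p = 1.21e-05). The other large gains were those of ABCA7 (0.82), a lipid transporter, MPEG1 (0.67), a perforin-like protein, TCL1B (1.18), of the TCL1 family, and NAPSB (1.07), an aspartic peptidase pseudogene. The largest losses were those of ATF5, a stress-induced transcription factor, from 87000 to 35200, and of IRF4, from 62100 to 33800. TFRC, the transferrin receptor, went from 25400 to 11900. HSPD1 (-0.50) and HSPA9 (-0.66), mitochondrial chaperones, and PKM2 (-0.45), a pyruvate kinase, completed that set.

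Genes of the receptor end of the pathway were mostly higher in ibrutinib. Of the 8 B cell receptor chains and co-receptors 6 rose and 0 fell (median 0.395, against 0.011 over all tested genes). CD79B, a signalling chain of the receptor, was at 12.73 and 12.76 in DMSO and at 13.99 and 13.96 in ibrutinib, a rise of 1.24 (SE 0.0672, limma adjusted p = 2e-10), while its partner CD79A rose by 0.44. CD81 (0.61), a tetraspanin of the co-receptor, rose as well. Among 20 kinases, adaptors and second messengers of the receptor 11 rose and 5 fell (3 without sgCTRL ibrutinib replicate 2). The increases included DAPP1 (0.99) and BANK1 (0.63), adaptors, and PLCG2 (0.33) and SYK (0.33). The robust decreases were SH3BP2 (-1.19), an adaptor, FYN (-0.78), a SRC-family kinase, and PRKCD (-0.24), a protein kinase C; RASGRP1 (-0.41) and LYN (-0.21) made up the 5, with limma adjusted p of 0.0506 and 0.0527 without sgCTRL ibrutinib replicate 2, and for LYN 0.085 without sgCTRL ibrutinib replicate 1. BTK, the target of the drug, was at 13.80 and 13.74 in DMSO and at 13.91 and 13.96 in ibrutinib, a change of 0.17 (limma adjusted p = 0.0263) whose call ended under 6 of the alternatives, among them leaving out sgCTRL ibrutinib replicate 1 (0.0992), sgCTRL ibrutinib replicate 2 (0.215) or sgCTRL DMSO replicate 2 (0.135).

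Negative regulators of the receptor moved the same way as its chains. Of 18 inhibitory receptors and phosphatases 10 rose, all of them robust (median 0.309). PTPN22, a phosphatase that turns off SRC-family kinases, was at 8.74 and 8.71 in DMSO and at 9.75 and 9.72 in ibrutinib. CBLB (0.90), a ubiquitin ligase, and FCRL3 (0.89) and FCGR2B (0.83), inhibitory receptors, rose by similar amounts. The 3 decreases were DOK1 (-0.40), LILRB1 (-0.18) and PTPN2 (-0.18), and there were 0 without sgCTRL DMSO replicate 1 or sgCTRL ibrutinib replicate 2 and 1 without sgCTRL ibrutinib replicate 1. Fc receptor and Fc receptor-like genes, which share some of these members, had the highest median of all lists with at least 4 members (0.675), with 9 of 12 higher and 0 lower. FCRL1, an Fc receptor-like protein of B cells, was at 7.69 and 7.99 in DMSO and at 9.44 and 9.55 in ibrutinib (1.66, SE 0.121, limma adjusted p = 6.71e-09). FCGR2C (1.40), FAIM3 (1.23), an IgM receptor, and FCRLA (1.04), an intracellular member, followed. FCGR2B and FCGR2C are near-identical copies whose reads the counting could have split, so their separate values are uncertain.

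The Toll-like receptor route also rose. Of 17 genes of the Toll-like receptor and MYD88 pathway 14 were higher, 12 of them robustly, and 0 were lower (median 0.48). TLR1 and TLR2, which pair to sense bacterial lipoproteins, rose by 0.98 and 0.80. TLR2 was at 7.69 and 7.94 in DMSO and at 8.56 and 8.68 in ibrutinib. LY86, the partner of the B cell Toll-like receptor homologue CD180, rose by 0.87, and IRAK3, which restrains MYD88 signalling, rose by 0.75. TIRAP, IRAK1 and IRAK4 were the members not called.

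Downstream of these signals the direction turned. Of 17 feedback inhibitors of NF-kB, most of which NF-kB itself induces, 11 fell (median -0.343). NFKBIA, the classical inhibitor of NF-kB, was at 11.18 and 11.06 in DMSO and 10.15 and 10.07 in ibrutinib, a fall of 1.01 (SE 0.073, limma adjusted p = 6.55e-09). TNFAIP3, the ubiquitin-editing enzyme A20, was at 11.87 and 11.88 in DMSO and 11.02 and 10.99 in ibrutinib. NFKBID (-1.33), a nuclear inhibitor-like protein, fell beside TNIP3. The 1 increase was TRAF3 (0.19), which was not called when any 1 of the 4 sgCTRL libraries was left out. Of the 5 NF-kB subunits 2 fell, NFKB2 (-0.48) robustly and REL (-0.47) not, since 1 subunit was called without sgCTRL ibrutinib replicate 1 and without either DMSO library, sgCTRL DMSO replicate 1 or sgCTRL DMSO replicate 2. NFKB1, RELA and RELB were not called.

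Secreted factors were the list with the lowest median (-0.798). Of 33 cytokines and chemokines 12 passed the level filter, and all 12 were called, 10 lower and 2 higher, so no count over these 12 speaks for the 21 that were too low. Beside EBI3 and IL10, CXCL10, a chemokine for activated T cells, was at 7.15 and 7.61 in DMSO and 5.71 and 5.02 in ibrutinib. The ibrutinib levels of CXCL10 lay under the filter of 6, which it passed through its other libraries. TNF was at 9.80 and 9.53 in DMSO and 8.19 and 8.11 in ibrutinib. Both treatments were separate for each of these genes, with the ibrutinib libraries lower. The increases were LTB and IL16 (0.82), a T cell attractant. Ligands for T cells followed the cytokines. Of 20 listed costimulatory and checkpoint ligands 11 passed the level filter, and 6 of these fell. Among them were CD274 (-1.60), the ligand PD-L1, CD58 (-1.39) and CD48 (-0.69), adhesion partners of T and natural killer cells, and ICAM1 (-0.41). CD274 was at 11.05 and 11 in DMSO and at 9.44 and 9.42 in ibrutinib. C10orf54 (0.88), the checkpoint ligand VISTA, and LGALS9 (0.84), a galectin, rose. Receptors of the tumour necrosis factor family went up instead. Of 17 listed 11 passed the level filter, and of these 6 were higher and 0 lower. The increases were led by CD27 (1.48), a marker of memory B cells, and TNFRSF21 (1.34).

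Promoters of an increased and a decreased cytokine gene are shown because both hold the letters of an NF-kB-like site, although their mRNAs moved in opposite directions. They are RefSeq promoters of GRCh38.p14, 250 bases before to 50 after the start of the gene, printed on the gene's own strand, with matches to GGGANNTTC on either strand in capitals. LTB lies at chr6:31582376-31582675 on the minus strand and CXCL10 at chr4:76023448-76023747 on the minus strand.
LTB: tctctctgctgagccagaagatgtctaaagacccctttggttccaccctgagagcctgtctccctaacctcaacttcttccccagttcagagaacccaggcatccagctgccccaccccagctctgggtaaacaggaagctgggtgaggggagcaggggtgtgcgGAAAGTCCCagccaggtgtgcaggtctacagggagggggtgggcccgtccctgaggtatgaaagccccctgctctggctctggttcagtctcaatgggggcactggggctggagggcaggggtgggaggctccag
CXCL10: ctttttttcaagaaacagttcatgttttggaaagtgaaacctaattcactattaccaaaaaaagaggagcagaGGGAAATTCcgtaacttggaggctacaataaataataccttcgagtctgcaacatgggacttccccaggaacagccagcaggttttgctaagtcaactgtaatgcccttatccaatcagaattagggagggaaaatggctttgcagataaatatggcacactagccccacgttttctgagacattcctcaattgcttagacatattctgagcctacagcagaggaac
These letters stood in 4.21% of all 27305 promoters of the table and in 3.90% of those of tested genes. They stood in 8.26% of the promoters of genes at least 2-fold higher (10 of 121) and 5.45% of those at least 2-fold lower (6 of 110). Among members of the NF-kB and cytokine lists with a promoter they stood in 22.2% (8 of 36). A match describes the letters and is not evidence of binding.

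Early response factors fell with the cytokines. Of 15 AP-1 and CREB/ATF factors 9 fell and 0 rose (median -0.307). BATF3 (-1.66), BATF (-1.12) and JUN (-1.09), which form AP-1 dimers, and ATF3 (-1.28), a stress-induced repressor, led the list. BATF was at 12.06 and 11.98 in DMSO and at 10.97 and 10.84 in ibrutinib. FOS and the other FOS genes were below the level filter. Among 19 immediate-early genes 11 fell and 5 rose. EGR2, IER3 (-1.58), SGK1 (-1.20), a survival kinase, and NAB1 (-1.06), a corepressor of EGR factors, were the largest decreases. The increases were led by BTG2 (0.80) and BTG1 (0.72), which restrain proliferation, and included MCL1 (0.35), ZFP36L2 (0.33) and ZFP36 (0.27). ZFP36L2 was not called without sgCTRL ibrutinib replicate 1 (limma adjusted p = 0.0674), nor ZFP36 without sgCTRL DMSO replicate 2 (0.0909) or sgCTRL ibrutinib replicate 2 (0.0703). Of 15 ERK feedback regulators and ETV factors 6 fell, among them ETV4 (-1.39), DUSP2 (-1.35), a phosphatase of MAP kinases, and ETV5 (-1.15). DUSP5 (0.76) rose, and ETV6 (0.28) was called in the full data and not without sgCTRL DMSO replicate 1 or sgCTRL ibrutinib replicate 2, which left 1 increase.

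JAK and STAT genes split. Of 26 measured 9 rose (5 without sgCTRL ibrutinib replicate 1) and 8 fell, with a median of -0.01 that lay near that of all genes. IL4R, the interleukin 4 receptor, was at 9.88 and 9.74 in DMSO and at 11.16 and 11.11 in ibrutinib. STAT2 (0.84), an interferon transducer, and IL10RA (0.66) rose too. STAT5A went from 8.15 and 7.78 to 6.44 and 6.02, a fall of 1.74 (SE 0.185, limma adjusted p = 8.16e-07). STAT3 (-0.45) fell with its feedback inhibitor SOCS3 (-0.43) and with IL21R (-0.49).

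Most of the listed interferon-stimulated genes rose. Of 39 interferon-stimulated effectors above the level filter 32 were higher, 27 of them robustly (median 0.572). IFIT1 was at 5.86 and 6.12 in DMSO and at 8.21 and 7.95 in ibrutinib (2.09, SE 0.176, limma adjusted p = 4.24e-08). IFI44L was at 5.17 and 5.71 in DMSO and at 7.34 and 7.46 in ibrutinib. Both DMSO levels of IFI44L and the lower DMSO level of IFIT1 lay under the filter of 6. These genes passed it through their other libraries. XAF1, an interferon-induced partner of XIAP, was at 8.19 and 8.20 in DMSO and at 9.83 and 9.80 in ibrutinib. In each case the replicates lay much closer to each other than the treatments did. IFIT3 (1.74) behaved likewise. GBP1 (-0.57) was the 1 decrease, and there was 0 without sgCTRL DMSO replicate 1 or sgCTRL ibrutinib replicate 2. The list held 50 genes, and the other 11 were below the filter. CXCL10 (-2.02), a chemokine gene that interferons also induce, was counted with the cytokines and not in this list. Of 18 nucleic acid sensors and interferon receptors 10 rose, among them the RNA sensors DHX58 (0.74) and DDX58 (0.62) and the DNA sensor AIM2 (0.64). TBK1 (-0.28), a kinase of the sensing pathway, was lower, a call lost without sgCTRL ibrutinib replicate 1 (limma adjusted p = 0.0982) and with no level filter (0.0723).

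Of 12 interferon regulatory factors and partners 7 rose and 2 fell. IRF7, the main driver of type I interferon genes, was at 8.17 and 7.98 in DMSO and at 9.29 and 9.24 in ibrutinib, and IRF8, a B cell and myeloid factor, rose by 1.21. IRF9 (0.59), the partner of STAT2, was also higher. IRF4, on which this lymphoma type depends, was at 15.95 and 15.89 in DMSO and at 15.03 and 15.06 in ibrutinib, a fall of 0.88 (SE 0.0629, limma adjusted p = 5.88e-09). IRF5 (-0.44) was the other decrease, and its call ended only with no level filter (limma adjusted p = 0.0608).

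Promoters of IFIT1 and IFI44L are shown because these leading effectors hold the letters of an interferon-stimulated response element. They come from RefSeq on GRCh38.p14 as above, with matches to GAAANNGAA on either strand in capitals, 2 in each. IFIT1 lies at chr10:89392373-89392672 on the plus strand and IFI44L at chr1:78620198-78620497 on the plus strand.
IFIT1: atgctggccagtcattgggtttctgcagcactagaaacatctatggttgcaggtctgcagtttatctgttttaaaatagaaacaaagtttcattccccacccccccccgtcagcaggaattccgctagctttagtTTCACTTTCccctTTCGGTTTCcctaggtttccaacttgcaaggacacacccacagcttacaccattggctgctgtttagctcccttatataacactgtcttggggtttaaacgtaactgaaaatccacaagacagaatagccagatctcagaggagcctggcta
IFI44L: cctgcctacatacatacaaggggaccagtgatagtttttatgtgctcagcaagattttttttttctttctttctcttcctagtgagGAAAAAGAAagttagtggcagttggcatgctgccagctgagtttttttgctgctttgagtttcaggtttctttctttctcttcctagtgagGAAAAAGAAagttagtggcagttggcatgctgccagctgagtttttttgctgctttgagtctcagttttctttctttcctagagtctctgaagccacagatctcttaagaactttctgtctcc
Of the promoters of genes at least 2-fold higher in ibrutinib 22.3% held these letters (27 of 121), against 6.36% of those at least 2-fold lower, 6.73% of those of tested genes and 8.29% of all promoters. Of the interferon-stimulated effectors with a promoter 65.6% held them (21 of 32), and of those called higher 61.5% (16 of 26).

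**Figure D3:**
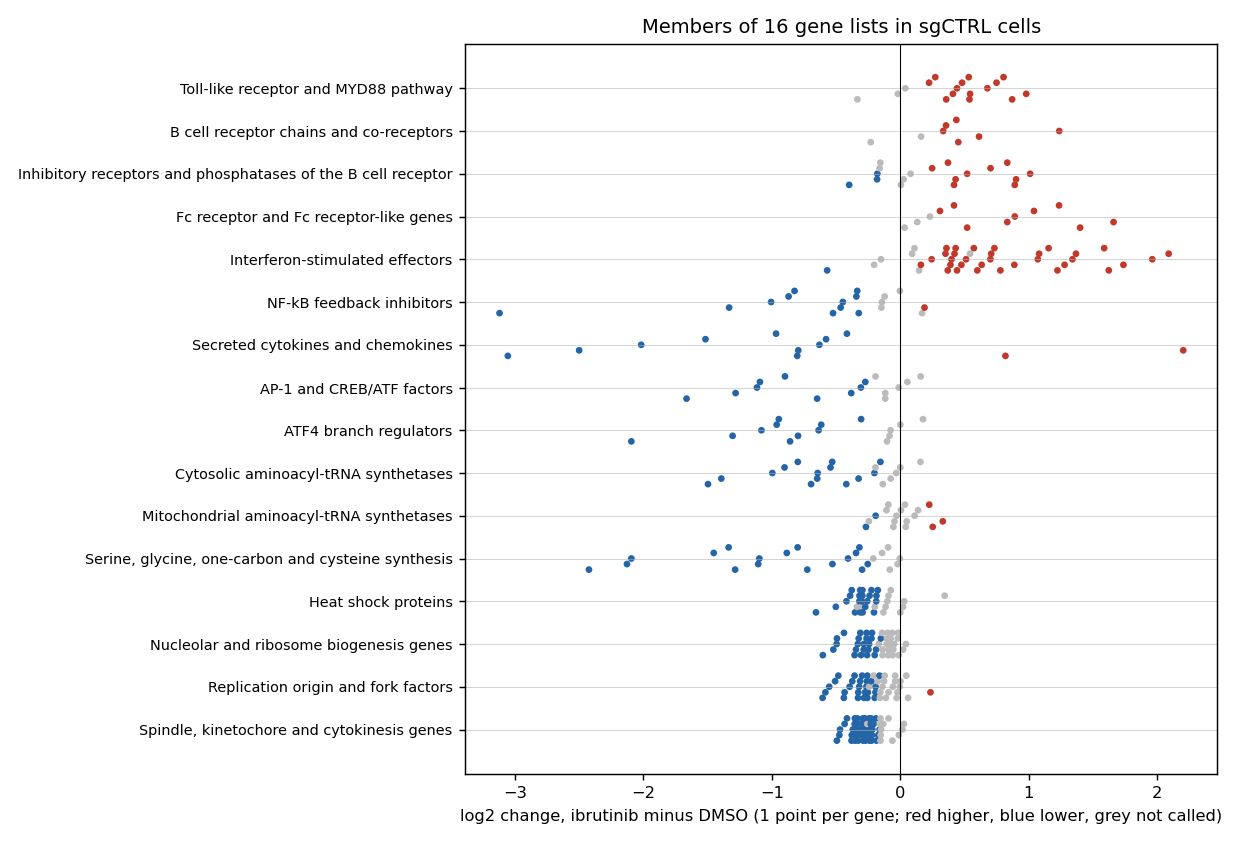
Changes of the members of 16 gene lists. The x axis is the log2 change, ibrutinib minus DMSO, in sgCTRL cells; each point is 1 tested gene, red where called higher, blue where called lower and grey where not called. Receptor, Toll-like receptor, Fc receptor and interferon lists lie to the right of 0, feedback inhibitors, cytokines, AP-1 factors and the ATF4 and synthetase lists reach far to the left, and the cell cycle and nucleolar lists form narrow bands just left of 0.

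Genes of B cell identity moved in both directions. Of 33 transcription factors 13 rose and 8 fell, against shares of 19.4% and 18.5% over all genes. ID3, an inhibitor of E proteins, was at 6.93 and 6.71 in DMSO and at 8.67 and 8.56 in ibrutinib, while its relative ID2 was at 10.99 and 10.97 in DMSO and at 9.85 and 9.86 in ibrutinib. These relatives thus moved by more than 1 log2 unit in opposite directions. AFF3 (1.15), ETS1 (0.61) and BCL11A (0.57) rose, and LMO2 (-0.88), TOX (-0.52) and NFATC1 (-0.42) fell. Plasma cell genes were likewise divided, with 10 of 19 higher (6 without sgCTRL ibrutinib replicate 1) and 6 lower. IGJ, CD38 (1.54), an ectoenzyme of plasma cells, DERL3 (1.37), of the endoplasmic reticulum, and MGC29506 (0.79), the B cell chaperone MZB1, rose. SLAMF7 (-1.58), the antigen of elotuzumab, HNRPLL (-0.91), a splicing regulator, IRF4 and SEC11C (-0.43), a signal peptidase subunit, fell. Of 14 markers of the activated B cell-like type 5 fell (BATF, IRF4, CYB5R2, RAB7L1 and PIM2) and 4 rose (IL16, LIMD1, FUT8 and TNFRSF13B). Their median change was 0.09. Their summed normalized count was 159000 to 163000 in DMSO and 134000 to 135000 in ibrutinib. IRF4 had the highest level of the 14, at 15.95 and 15.89 in DMSO and 15.03 and 15.06 in ibrutinib. It weighed most in the sum, so the lower sum does not speak for the other markers. Of 7 germinal centre-type markers 4 rose (2 without sgCTRL ibrutinib replicate 1), led by STAP1 (1.63) and S1PR2 (1.03), and LMO2 fell.

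The host RNA of miR-155, a microRNA that B cells raise on activation, had the largest change among the 17 listed non-coding and host RNAs tested. MIRHG2 was at 10.70 and 11.13 in DMSO and at 9.14 and 9.11 in ibrutinib, a fall of 1.80 (SE 0.105, limma adjusted p = 4.42e-10). Both ibrutinib libraries lay more than 1 log2 unit below both DMSO libraries. The libraries count the polyadenylated host and not the mature microRNA, whose sequence is shown for identity, from RefSeq on GRCh38.p14 (chr21:25573983-25574006, plus strand), with the seed, bases 2 to 8, in capitals.
hsa-miR-155-5p: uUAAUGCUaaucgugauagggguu
Of the 17 long non-coding and host RNAs tested 4 were higher (2 without sgCTRL DMSO replicate 1 or sgCTRL ibrutinib replicate 2), C17orf91 (0.83), MALAT1 (0.42), NCRNA00084 (0.34) and TUG1 (0.19), none of them robustly, and 2 were lower. The other decrease, C7orf40 (-0.39), was lost without sgCTRL DMSO replicate 2 or sgCTRL ibrutinib replicate 2.

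Surface receptors changed with the programme. Of 21 listed antigens targeted by antibodies or cell therapies 16 passed the level filter, and of these 11 rose and 3 fell. CD52, CD38, CD79B and CD37 were the largest increases, and CD274 (-1.60), SLAMF7 and CD70 (-0.23) the decreases. CD70 was not called when any 1 of the 4 sgCTRL libraries was left out (limma adjusted p of 0.0586 to 0.263). CD38 was at 6.43 and 6.22 in DMSO and at 7.80 and 7.94 in ibrutinib. SLAMF7 was at 10.74 and 10.88 in DMSO and at 9.23 and 9.23 in ibrutinib. The 5 tested genes of the list of SLAM receptors and adaptors were all called, but 6 of 11 were below the filter. SLAMF6 (1.48) and CD84 (1.23) were higher, and SLAMF7, CD48 and SH2D2A (-0.91) were lower. SH2D2A is an adaptor and not a member of the SLAM family. Of 25 listed chemokine and homing receptors 13 passed the level filter, and of these 8 rose and 3 fell. GPR18 (1.32), S1PR2, which confines B cells to germinal centres, CCR7 (0.88), which draws cells to T zones, and CXCR4 (0.70) rose. GPR183 (-0.73), the oxysterol receptor, PTGER4 (-0.58), a prostaglandin receptor, and CXCR5 (-0.56), the follicle-homing receptor, fell. CCR7 was at 9.06 and 9.11 in DMSO and at 10.03 and 9.90 in ibrutinib, and CXCR5 at 11.61 and 11.49 in DMSO and at 10.99 and 10.99 in ibrutinib. Among 18 integrins and adhesion receptors 8 fell, among them ITGAX (-1.44), ITGB2 (-0.68) and CD44 (-0.65), and 6 rose (3 without sgCTRL DMSO replicate 2 or sgCTRL ibrutinib replicate 1).

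Active AKT keeps FOXO factors out of the nucleus. Most genes of a mixed list of FOXO targets and quiescence genes rose, and FOXO activity itself was not measured. Of 21 FOXO targets and quiescence genes 13 were higher, 10 of them robustly, and 1 was lower, also robustly. The median change was 0.365 and the range -0.996 to 0.883. FOXO3 itself (0.74), CXCR4, CCR7 and YPEL5 (0.82) were the leading increases. FOXO3 was at 8.00 and 7.76 in DMSO and at 8.62 and 8.62 in ibrutinib. Of 27 regulators of PI3K, AKT and mTOR 12 rose and 6 fell. PIK3CG (0.99), a catalytic subunit, SESN1 (0.66), INPP5D (0.43), the phosphatase SHIP1, and TSC2 (0.36) rose. SESN2 (-1.88), a stress-induced relative of SESN1 that restrains mTOR, PIK3R2 (-0.39) and AKT1 (-0.28) fell. SESN2 was at 8.93 and 8.66 in DMSO and at 7.05 and 6.77 in ibrutinib, opposite in direction to SESN1.

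The amino acid response, a programme in which ATF4 induces enzymes and synthetases when amino acids run short or growth signals are strong, fell as a block. Of 15 regulators of the ATF4 branch 10 fell and 0 rose (median -0.636). CHAC1, which degrades glutathione, was at 9.05 and 8.94 in DMSO and at 6.90 and 6.90 in ibrutinib. ATF5 was at 16.48 and 16.33 in DMSO and at 15.11 and 15.09 in ibrutinib (-1.31, SE 0.0692, limma adjusted p = 1.37e-10). TRIB3 (-1.08), a pseudokinase, and PPP1R15A (-0.95), which restores translation after stress, followed, and ATF4 mRNA itself fell by 0.86. Of 23 enzymes of serine, glycine, one-carbon and cysteine synthesis 17 fell, 15 robustly, and 0 rose (median -0.529). Beside CTH and ALDH1L2, ASNS, asparagine synthetase, was at 12.01 and 12.16 in DMSO and at 10.62 and 10.64 in ibrutinib.

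Aminoacyl-tRNA synthetases differed by compartment in their counts. Of the 20 cytosolic enzymes 14 fell, 12 robustly, and 0 rose (median -0.476). WARS, for tryptophan, was at 13.40 and 13.36 in DMSO and at 11.85 and 11.93 in ibrutinib (-1.50, SE 0.0563, limma adjusted p = 3.56e-12). CARS (-1.39) and YARS (-0.90), for cysteine and tyrosine, were among them. Of the 17 mitochondrial enzymes 3 rose (HARS2, MARS2 and SARS2) and 2 fell (IARS2 and LARS2), near the background shares, with a median of 0.004. None of the 5 calls was robust, and without sgCTRL ibrutinib replicate 2 there were 0 increases and 1 decrease, and 1 increase without sgCTRL DMSO replicate 1 or sgCTRL ibrutinib replicate 1. The decrease count was 1 without any 1 of the 4 libraries. The difference between compartments was not tested. Amino acid carriers were mixed. Of 20 carriers 8 fell, led by SLC6A9 (-1.84), for glycine, SLC1A5 (-0.90), for glutamine, SLC43A1 (-0.60) and SLC38A5 (-0.60), and 4 rose, SLC1A4 (0.48), SLC7A6 (0.37), SLC15A4 (0.26) and SLC7A1 (0.21). SLC7A1 was not called without sgCTRL DMSO replicate 1, sgCTRL ibrutinib replicate 1 or sgCTRL ibrutinib replicate 2 (limma adjusted p of 0.071 to 0.11).

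Promoters of CHAC1 and ASNS are shown because both leading decreases hold the letters of an amino acid response element, TGATGNAA, in capitals on either strand. They come from RefSeq on GRCh38.p14, CHAC1 at chr15:40953221-40953520 on the plus strand and ASNS at chr7:97872359-97872658 on the minus strand.
CHAC1: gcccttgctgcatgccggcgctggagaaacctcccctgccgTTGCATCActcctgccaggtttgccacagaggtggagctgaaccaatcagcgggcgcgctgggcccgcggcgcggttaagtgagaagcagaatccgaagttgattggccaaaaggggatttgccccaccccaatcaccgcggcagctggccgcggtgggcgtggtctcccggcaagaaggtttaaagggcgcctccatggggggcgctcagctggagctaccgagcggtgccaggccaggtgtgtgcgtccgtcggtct
ASNS: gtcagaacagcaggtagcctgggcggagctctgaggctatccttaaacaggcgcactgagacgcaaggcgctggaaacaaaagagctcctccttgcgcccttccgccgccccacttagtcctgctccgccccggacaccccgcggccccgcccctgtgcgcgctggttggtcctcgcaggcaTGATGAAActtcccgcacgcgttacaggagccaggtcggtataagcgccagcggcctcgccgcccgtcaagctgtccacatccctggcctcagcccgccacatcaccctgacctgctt
The letters stood in 3.67% of all promoters and 1.59% of those of tested genes. They stood in 6.36% of the promoters of genes at least 2-fold lower (7 of 110) and 2.48% of those at least 2-fold higher. Members of the ATF4, synthetase, carrier and serine lists held them in 13 of 65 cases, and members called lower in 26.8% (11 of 41).

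Other metabolic groups changed by less. Of 24 genes of glycolysis and glucose uptake 13 fell (8 without sgCTRL ibrutinib replicate 2), among them PDK1 (-0.86), which holds back pyruvate oxidation, HK1 (-0.58) and LDHA (-0.47). The glucose carriers SLC2A3 (1.21) and SLC2A1 (0.42) rose, as did PFKP (0.21), though not without sgCTRL DMSO replicate 2, sgCTRL ibrutinib replicate 1 or sgCTRL ibrutinib replicate 2 (limma adjusted p of 0.0558 to 0.182). Of 26 genes of purine and pyrimidine synthesis 12 fell (7 without sgCTRL DMSO replicate 2 or sgCTRL ibrutinib replicate 2), and the salvage kinase DCK (0.38) and RRM2B (0.35) rose. Of 23 genes of cholesterol synthesis and uptake 10 rose and 0 fell (median 0.172). Of 14 genes of fatty acid synthesis 0 rose and 3 fell, ACSL1 (-0.79), ACSL3 (-0.59) and ELOVL5 (-0.35). The share of fatty acid genes that fell, 21.4%, was near the 18.5% of all tested genes. TM7SF2, a sterol reductase, was at 10.34 and 10.31 in DMSO and at 10.95 and 10.91 in ibrutinib. ABCA1 (1.03), which exports cholesterol, was higher. TFRC and STEAP3 (-1.05), a ferrireductase of iron uptake, were lower. TFRC was at 14.59 and 14.67 in DMSO and at 13.52 and 13.56 in ibrutinib. Of 38 subunits of respiratory complex I 5 were lower, 0 robustly (1 to 3 without any 1 of the 4 libraries), and of 34 subunits of the later complexes and ATP synthase 3 were lower, COX5B, ATP5D and ATP5J (0 without sgCTRL ibrutinib replicate 2 and 1 without sgCTRL DMSO replicate 1). Those shares lie below the background of 18.5%.

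Growth and division genes fell by small and even amounts. Of 54 spindle, kinetochore and cytokinesis genes 42 fell, 18 of them robustly, and 0 rose (median -0.268). The largest change in the list was -0.494, of CKS1B, a subunit of cyclin-dependent kinases, which was at 10.76 and 10.85 in DMSO and at 10.37 and 10.25 in ibrutinib. NDC80 (-0.47), which ties microtubules to kinetochores, KIF2C (-0.47), a microtubule depolymerase, and NCAPH (-0.43), a condensin subunit, were close behind. Of 47 replication factors 27 fell, 14 of them robustly (median -0.226). Among them were GINS2 (-0.61), of the replicative helicase, CHAF1B (-0.58), a histone chaperone, and POLE2 (-0.55) and POLD3 (-0.51), of DNA polymerases. GINS3 (0.23) was the 1 increase, and it was lost without sgCTRL DMSO replicate 1, sgCTRL DMSO replicate 2 or sgCTRL ibrutinib replicate 1. Of 40 repair genes 15 fell, led by EXO1 (-0.68) and BLM (-0.57), and ATM (0.62) and ATR (0.24), the damage-sensing kinases, were higher, neither of them robustly, with 1 increase left without sgCTRL ibrutinib replicate 1 or sgCTRL ibrutinib replicate 2. CDK6 (-0.70), which drives entry into the cycle, fell, and E2F2 (0.85) and E2F5 (0.55) rose. Histone genes went against the cycle genes. Of 16 linker and core histone genes 10 rose and 2 fell (1 fell without sgCTRL DMSO replicate 2, sgCTRL ibrutinib replicate 1 or sgCTRL ibrutinib replicate 2), with HIST1H4H (1.52) highest and H1FX (-1.06) lowest. Their near-identical copies share reads and most histone mRNAs lack the tail that the kit selects, so these values are uncertain.

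Genes that make ribosomes and fold proteins fell to a like extent. Of 43 nucleolar and ribosome biogenesis genes 23 fell, 11 of them robustly, and 0 rose (median -0.189). Among the decreases were PA2G4 (-0.52), DDX21 (-0.49) and NOLC1 (-0.44). Of 39 translation factors 15 fell, 8 of them robustly, led by EIF4EBP1 (-1.09), an inhibitor of the cap-binding protein, and EIF2S2 (-0.65). EIF4EBP1 was at 10.01 and 10.08 in DMSO and at 9.04 and 8.88 in ibrutinib. The 2 increases, EIF3F (0.20) and EIF3L (0.15), numbered 0 without sgCTRL DMSO replicate 1 or sgCTRL ibrutinib replicate 2 and 1 without sgCTRL DMSO replicate 2 or sgCTRL ibrutinib replicate 1. Of 34 heat shock proteins 22 fell and 0 rose (median -0.266), though 1 rose without sgCTRL ibrutinib replicate 1. Among the heat shock decreases 8 were robust. HSPA9 was at 14.92 and 14.86 in DMSO and at 14.22 and 14.25 in ibrutinib. Chaperones of the endoplasmic reticulum went the other way, with 11 of 24 higher (5 without either ibrutinib library, sgCTRL ibrutinib replicate 1 or sgCTRL ibrutinib replicate 2) and 3 lower. PDIA4 (0.64), PPIB (0.42) and HSPA5 (0.33), the chaperone BiP, rose, and ERO1L (-0.58), TXNDC5 (-0.37) and PDIA6 (-0.25) fell. Of 34 proteasome subunits 10 fell, led by PSMA6 (-0.44), and 0 rose, while the immunoproteasome subunit PSMB8 (0.68), the class I regulator NLRC5 (0.49) and HLA-B (0.41) rose. HLA-DOB (1.24), a modulator of peptide loading on MHC class II, was at 6.93 and 7.20 in DMSO and at 8.29 and 8.31 in ibrutinib.

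Survival genes moved in both directions. BCL2L1 (-0.44), BCL2L2 (-0.58) and BCL2A1 (-0.50), which protect cells from death, fell, and MCL1 (0.35), which also protects, rose, while BCL2 was not called. BCL2A1, a known NF-kB target, was at 11.90 and 11.93 in DMSO and at 11.45 and 11.39 in ibrutinib. Of 8 pro-death members BCL2L11 (0.53), which encodes BIM, BAX (0.33) and BBC3 (0.34) were higher and PMAIP1 (-0.86), which encodes NOXA, and BID (-0.42) were lower. The calls of BAX and BID ended only with no level filter (limma adjusted p of 0.0935 and 0.0708), and that of BBC3 without sgCTRL DMSO replicate 1, sgCTRL DMSO replicate 2 or sgCTRL ibrutinib replicate 1 (0.0994 to 0.35). BCL2L11 was at 13.88 and 13.93 in DMSO and at 14.41 and 14.45 in ibrutinib. PMAIP1 was at 10.92 and 10.90 in DMSO and at 9.94 and 10.16 in ibrutinib. CFLAR (-0.82), which blocks caspase 8, fell, and CASP10 (0.72) and RIPK3 (0.63) rose.

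**Figure D4:**
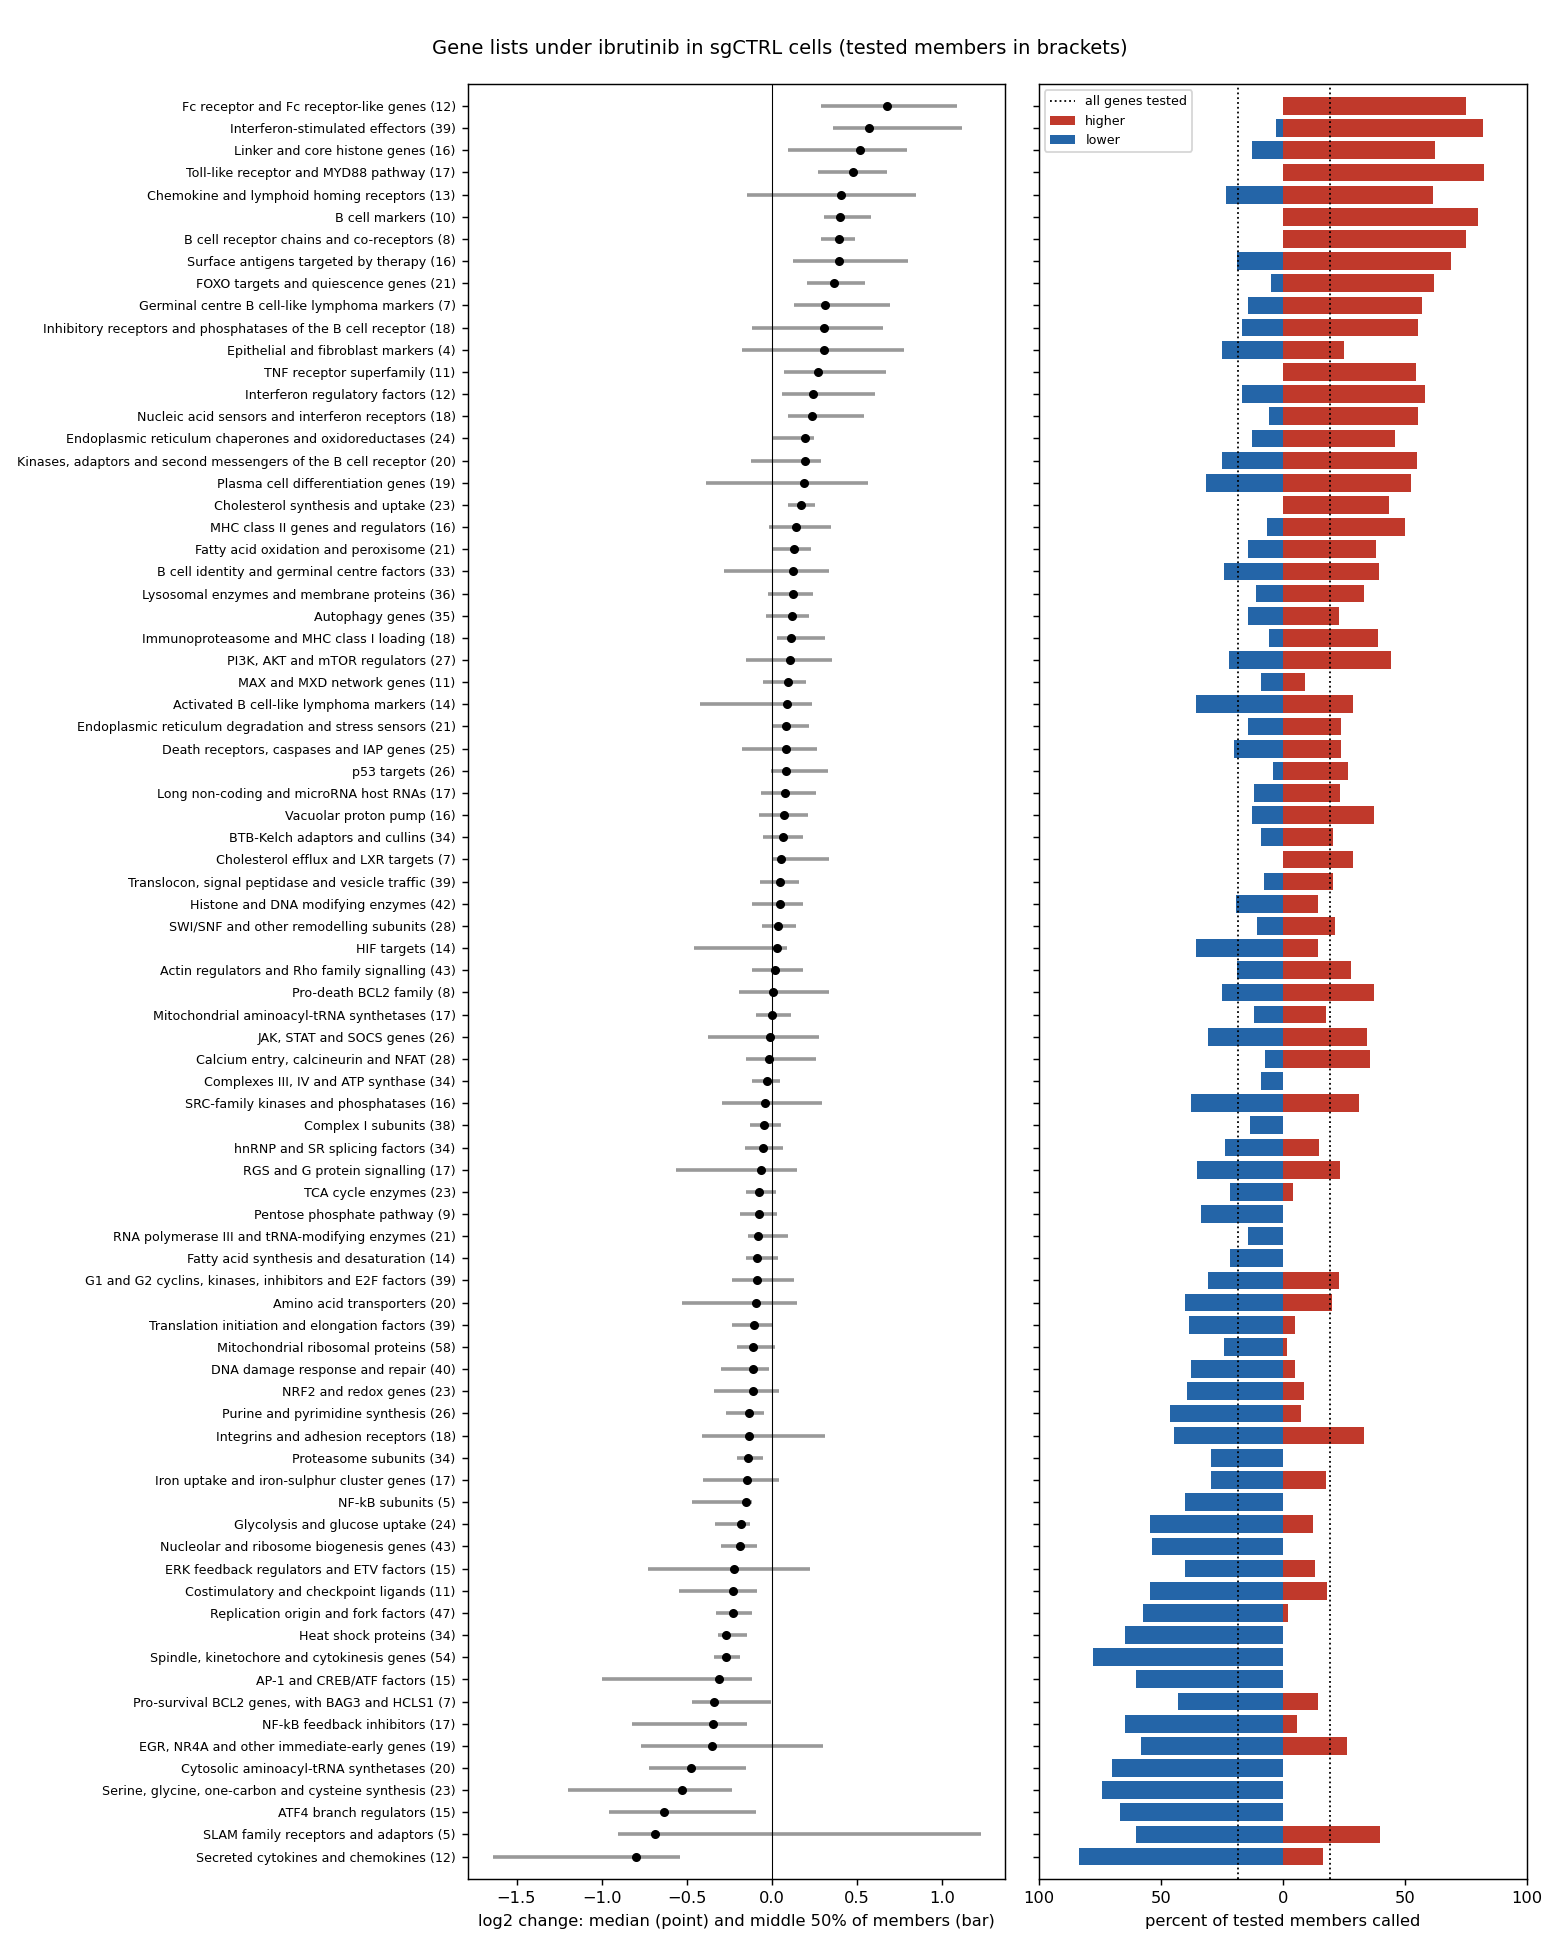
Gene lists with at least 4 tested members, 1 list left out, ordered by median change. On the left the point is the median log2 change and the bar the middle 50% of members; on the right red bars give the percent of tested members called higher and blue bars the percent called lower, with dotted lines at 19.4% and 18.5%, the shares of all tested genes. Fc receptors (0.675) stand at the top and cytokines (-0.798) at the bottom.

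Cells with the other guide gave a second measurement of the drug response from 4 libraries that this comparison did not use, although the fit shared 1 estimate of variance. Ibrutinib against DMSO in the libraries labelled sgKLHL14 called 4661 genes (42.7%). Of the 4138 genes called with sgCTRL 3332 were called in the same direction with sgKLHL14, which is 80.5% of the first set and 71.5% of the second, and 0 were called in opposite directions. The sign was the same for 4087 of the 4138 genes (98.8%). Of the 308 genes changed at least 2-fold with sgCTRL 301 were called in the same direction with sgKLHL14. For these genes, which were chosen by the size of their sgCTRL change, the median ratio of the sgKLHL14 change to the sgCTRL change was 0.936, with a middle range of 0.802 to 1.05. Cell cycle lists had lower medians with sgKLHL14, at -0.438 against -0.268 for spindle genes and at -0.425 against -0.226 for replication factors, a contrast between lists that was not tested. THRB changed by -3.88 with sgCTRL and -3.10 with sgKLHL14, VPREB3 by 3.27 and 1.81, and EBI3 by -3.05 and -3.58, and their differences were not called.

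The difference between the responses was called for 3 genes (0.0275% of those tested). HNRPLL, a splicing regulator of lymphocyte activation, was at 10.64 and 10.71 in DMSO and at 9.75 and 9.78 in ibrutinib with sgCTRL, a change of -0.91 against -1.87 with sgKLHL14. CLCN4, an endosomal chloride and proton exchanger, was at 8.82 and 8.84 in DMSO and at 7.72 and 7.90 in ibrutinib, a change of -1.02 against -0.18. KLHL14 changed by 0.24 with sgCTRL and 0.90 with sgKLHL14. At an unadjusted p under 0.05 there were 617 genes (5.65%), and without the variance trend 0 genes were called.

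**Figure D5:**
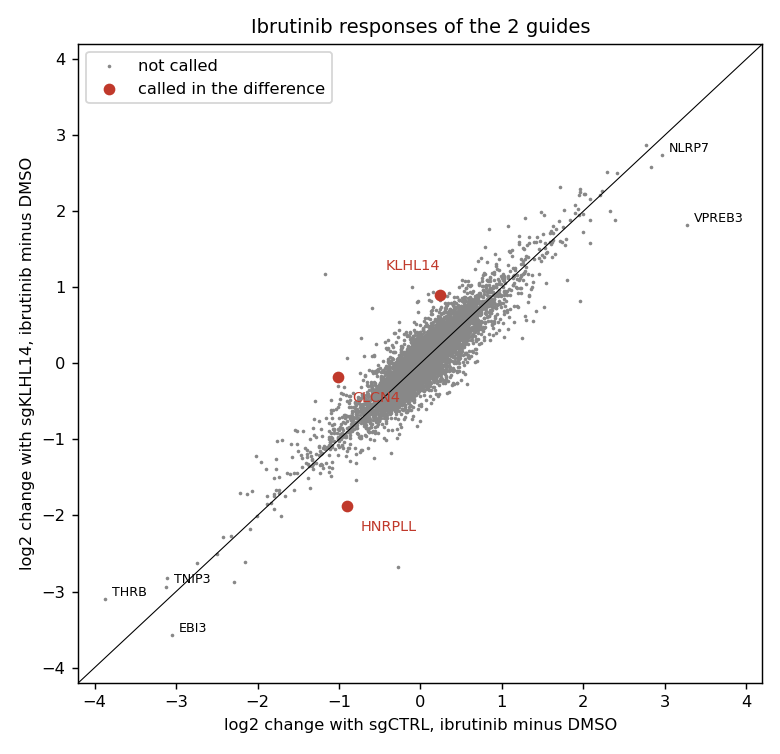
Ibrutinib response with sgCTRL (x axis) against the response with sgKLHL14 (y axis), both as log2 change, ibrutinib minus DMSO, with 1 point per tested gene and the line of equal change. Red points are KLHL14, HNRPLL and CLCN4, the genes called in the difference; most other genes lie along the line.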

How the data were processed

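RNA of 8 TMD8 samples was sequenced with a stranded mRNA kit, per the labels' protocols. The submitters' processing notes name bcl2fastq, STAR, HTSeq and build hg19; their versions, the annotation and the strand setting were not stated there. The deposited values are log2 normalized counts, on no standard unit: each was a whole number of reads, within 0.001 log2, times a factor of its library, and 0 reads is listed at 0. The row of mapped totals was left out of tests. Levels of at least 6 (mean over 8 libraries) were fitted with limma-trend 3.58.1 in R 4.3.3 as 4 group means over 8 libraries, and p-values were Benjamini-Hochberg adjusted over 10921 genes. The scripts were tested on simulated data. Named genes were BTK, KLHL14, the 12 largest robust increases and 12 decreases, the 6 largest robust gains and 6 losses of linear level, up to 4 robust members of each list per direction (all where 3 or fewer were called), and the leading genes of the difference between responses; other members named where 5 or fewer moved, and genes given with library values, were chosen after their values were seen. The members and lists were chosen with earlier results of these data known. Replicate numbers were not used to pair samples. Alternatives were other filters, scalings, models and left-out libraries. Some genes and 1 gene list are not reported here.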

Additional observations from a re-analysis of the deposited data

Results flagged for a closer look

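Of all genes tested 3 differed between the ibrutinib responses of the sgCTRL and sgKLHL14 cells by a test of the difference itself (limma, adjusted p under 0.05). The difference, sgCTRL minus sgKLHL14, was -0.657 for KLHL14, 0.963 for HNRPLL and -0.838 for CLCN4 on the log2 scale. KLHL14 is the gene that the guide targets, and the effect of the guide on its own reads cannot be told apart from an effect on the response.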

How the results depend on the processing

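The number of genes called moved most without the level filter, to 2280 (1164 higher and 1116 lower), when many more genes entered the adjustment. Leaving out 1 library at a time gave 2758 to 4411 genes, 1405 to 2273 higher and 1346 to 2138 lower. The lowest total and the lowest count of decreases came without sgCTRL ibrutinib replicate 2, and the lowest count of increases without sgCTRL ibrutinib replicate 1. All values recovered as whole reads (100%), and voom on those reads called 4046 genes. The difference between the responses was called for 0 genes without the variance trend, 5 with quantile scaling and 2 to 4 when 1 library was left out. The labels do not say whether libraries with the same replicate number belong together. Replicate differences correlated at -0.0239 between sgCTRL DMSO and ibrutinib, and at -0.0836 to 0.194 over 6 pairs of groups. A replicate block called 4475 genes, and 5 in the difference. Of 382 named genes 333 were called with 1 sign in every alternative that tested them, and 48 lost their call in at least 1. C1orf38, which was not called (-0.03), changed sign to 0.032 with reads thinned to equal depth, and left-out libraries gave -0.08 to 0.02, the highest without sgCTRL DMSO replicate 2. The median SE of a change was 0.158 among the genes of lowest level and 0.0633 among those of highest level, in 4 sets of equal size.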

Other observations

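Of 28 genes of calcium entry, calcineurin and NFAT 10 rose, 2 fell and 16 were not called, with a median change of -0.02 whose sign turned with quantile scaling and without sgCTRL DMSO replicate 1. The increases included ATP2A3 (0.92), which pumps calcium into the endoplasmic reticulum, ORAI3 (0.71), a channel subunit, and ATP2B4 (0.64), which pumps calcium out of the cell. The decreases were NFATC1 (-0.42) and CBARA1 (-0.30), a regulator of mitochondrial calcium uptake. Of 17 genes of G protein signalling 6 fell, led by RGS2 (-0.85), GNG2 (-0.73), RGS13 (-0.61) and ARRB2 (-0.61), and 4 rose (2 without sgCTRL DMSO replicate 2 or sgCTRL ibrutinib replicate 1), GRK5 (0.66), RGS19 (0.49), RGS14 (0.41) and RGS18 (0.32). HDAC9 (1.46), a histone deacetylase, was the largest change among 42 chromatin-modifying enzymes, and KLHL6 (-0.79), a relative of KLHL14 that B cells express, the largest among 34 BTB-Kelch adaptors and cullins. SRC (-1.21) and GABARAPL1 (-1.23), an autophagy protein, were lower, and P4HA2 (1.61), a collagen prolyl hydroxylase, was higher.

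Some changed genes lie side by side. Among 10682 tested genes placed by RefSeq there were 12 runs of at least 3 consecutive genes called at 1.5-fold or more in the same direction, 10 of them higher and 2 lower, which held 39 of the 1033 genes of that size. On chromosome 10 the run was IFIT2, IFIT3 and IFIT1, on chromosome 14 TCL6, TCL1B and TCL1A, and on chromosome 12 OAS1, OAS3, OAS2, DTX1 and RASAL1. The decreasing runs were SOCS7, ARHGAP23 and C17orf96 on chromosome 17 and HABP4, CDC14B and C9orf21 on chromosome 9. The genes of the IFIT and TCL1 runs, and OAS1, OAS3 and OAS2, are related or overlapping genes, while DTX1 and RASAL1 are not OAS genes. No test was made of how often runs arise.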
